A study of Rattus norvegicus with 12 samples.

Results

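The genes described here encode the core of the machinery that fuses synaptic vesicles with the plasma membrane. They are SNAP25, STX1A and VAMP2, CPLX1, and NAPA and NAPG. Members were all spots whose gene symbol in the annotation of the array platform was 1 of these 6 genes, and 8 cDNA clones met this rule among 9600 spots (6 of 6284 named genes). STX1A was spotted at 2 positions with 1 accession, NAPA was represented by 2 different clones, and each of the other genes had 1 clone.

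Vesicle fusion is driven by SNARE proteins, which zip together from opposing membranes into a bundle of helices. VAMP2, also called synaptobrevin, sits on the vesicle, whereas STX1A (syntaxin) and SNAP25 sit on the plasma membrane of the nerve terminal. Complexin, the product of CPLX1, binds the partly assembled bundle and holds it ready for the calcium signal. After fusion, the SNAP adaptor proteins encoded by NAPA (alpha-SNAP) and NAPG (gamma-SNAP) bring the ATPase NSF to the spent bundle, which is then taken apart for another round. Despite its name, SNAP25 is unrelated to these adaptors.

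RNA was taken from rat hippocampal neurons (Sprague Dawley, embryonic day 18.5) kept for 12 days in culture, on a layer of glial cells per the methods of the study, with 3 coverslips pooled for a sample. All cultures had been silenced for 3 h by blockers of NMDA receptors (D-APV, 50 µM), of AMPA receptors (CNQX, 40 µM) and of the action potential (TTX, 100 nM). They then stayed silent (Block) or were stimulated with the inhibition blocker bicuculline (50 µM) together with the potassium channel blocker 4-aminopyridine (500 µM), named BiC/4AP, without or with 25 µM of the transcription inhibitor actinomycin D (ActD). Each of these 4 treatments was measured at 5, 30 and 60 min as the labels give the time, on 1 nylon membrane each, so that 12 arrays covered 12 conditions without replication. The comparison of active with silent cultures, without and with ActD, addressed which transcripts change with network activity and which of these changes need new transcription.

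A spot was read as the intensity of radioactive cDNA made from rat RNA and bound to a human clone, so related rat transcripts may have contributed to a spot. Median intensity over all spots was 52.6 to 137 on the 12 arrays. The last position of each block of 25 spots was never listed in the annotation, and these 384 positions served as a reference for background. Of markers of neurons, 8 of 15 genes had a clone (12 clones), including ENO2, STMN2, GAP43, UCHL1 and TUBB3. Only 1 of these clones, that of ENO2, was above the brightest last position on 12 of 12 arrays. Both TUBB3 clones and 1 clone of UCHL1 were above it on 9. The defining neuronal genes MAP2, SYN1 and NEFL had none among the named spots. Glial genes gave signal too, with a median intensity of 121 for GFAP of astrocytes and 121 for AIF1 of microglia, and both were above the brightest last position on 11 arrays. In such bulk cultures fewer cells of a type and less RNA per cell cannot be told apart.

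All 8 clones gave a signal above the 95th percentile of the last positions on 12 of 12 arrays. SNAP25 ranged from 32.5 to 119 in raw intensity with a median of 78.5. VAMP2 ranged from 109 to 272 (median 177). The first STX1A spot (1806) ranged from 93.0 to 185 (median 147) and the second (3088) from 137 to 301 (median 223). None of these syntaxin, SNAP25 and VAMP2 spots varied by more than 3.66-fold between its dimmest and brightest array. CPLX1 ranged from 131 to 449 (median 209). Of the NAPA clones, spot 6338 ranged from 267 to 440 (median 303), the narrowest range of the 8 (1.64-fold), and spot 9559 from 26.55 to 123 (median 50.8), the widest (4.61-fold). NAPG ranged from 25.3 to 71.7 (median 38.7). Against the brightest single last position, which was 220.5 on the 30 min BiC/4AP array and 11.8 to 60.2 on the others, NAPA spot 6338 was higher on 12 arrays, SNAP25, both STX1A spots, VAMP2 and CPLX1 on 11, and NAPG and NAPA spot 9559 on 9.

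**Figure D1:**
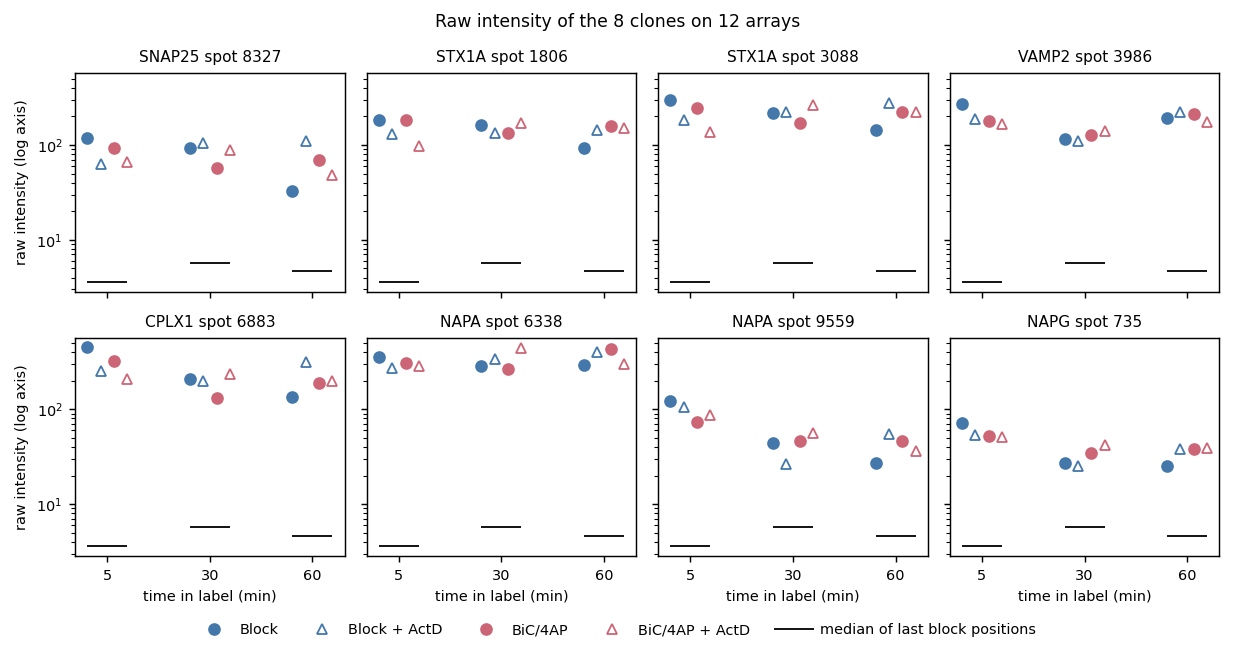
Raw intensity (log axis) of each of the 8 clones on the 12 arrays, by the time in the label, with 1 point per array. Blue marks Block, red BiC/4AP, open triangles arrays with ActD, and the black bar the median over arrays of the median last position of a block. Every point lies above these bars, and 7 of the 8 clones were brightest in raw intensity on the 5 min Block array, SNAP25 at 119 and CPLX1 at 449 among them.

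Raw intensities are not comparable between membranes, since the median over all spots differed between them and was highest on the 5 min Block array. Levels were therefore compared as z-scores of log2 intensity over all spots of an array, brought back to log2 units with the average SD over arrays (2.15) so that a difference reads as a log2 fold change. On this scale 0 is the mean of all spots, and a difference is between levels of the same clone. Over the 12 arrays 6 of the 8 clones had an SD below 0.33, the median of all listed spots. SNAP25 (SD 0.41) and NAPA spot 9559 (SD 0.49) had a larger one.

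Activity had no effect on any member that passed the test. Over 6 matched pairs of BiC/4AP and Block arrays, 0 of 8 clones were called, where 0% of all 9600 spots were called (limma, adjusted p under 0.05). At an unadjusted p under 0.05 there were 0 of 8 clones and 498 of 9600 spots. The median effect of the 8 clones was 0.04 log2, against -0.00 over all spots, with 4 clones above and 4 below 0.

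Among the SNAREs themselves, SNAP25 was the most variable between pairs. Its level in the silent cultures without ActD was -0.17 at 5 min, 0.25 at 30 min and -0.996 at 60 min, and that in the active cultures was -0.25, -0.35 and -0.33. With ActD it was -0.65, 0.43 and 0.18 in silent cultures and -0.39, -0.05 and -0.66 in active ones. The active array was thus lower in both pairs at 30 min, by 0.60 and 0.48 log2, whereas at 60 min it was 0.66 higher without ActD and 0.84 lower with it. The 60 min Block array held the lowest SNAP25 value of the 12. Over all pairs the activity effect was -0.18 log2 (SE 0.20, limma adjusted p = 0.926), and the effect was above 0 in 2 of 6 pairs. Leaving out 1 pair moved it between -0.35 (without the 60 min pair without ActD) and -0.05 (without the 60 min pair with ActD).

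For STX1A the activity effect was 0.13 (SE 0.11, adjusted p = 0.906) at the first spot and -0.02 (SE 0.09, adjusted p = 0.982) at the second, each above 0 in 4 of 6 pairs. At the first spot the pairs lay between -0.26 and 0.38, and at the second between -0.26 and 0.26. Both spots were lower in active cultures at 5 min with ActD and at 30 min without it, and both were higher at 60 min without and with ActD. VAMP2 had an effect of -0.02 (SE 0.10, adjusted p = 0.982). Its pairs lay between -0.28 at 5 min and 0.26 at 30 min, both without ActD, and 3 of 6 were above 0.

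CPLX1 had its lowest level, 0.90, in active cultures at 30 min without ActD, against 1.47 in the silent ones. The other 5 pairs of CPLX1 lay between -0.32 and 0.13, and the effect over 6 pairs was -0.16 (SE 0.11, adjusted p = 0.904).

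Of the SNAP adaptors, NAPG and the first NAPA clone (spot 6338) were higher in active cultures in 5 of 6 pairs each. The NAPG level was -0.91, -1.58 and -1.34 at 5, 30 and 60 min in silent cultures and -1.12, -1.11 and -1.13 in active ones, all without ActD. With ActD the levels were -0.92, -1.61 and -1.25 against -0.79, -1.14 and -0.97. The exception for NAPG was the 5 min pair without ActD, and its effect was 0.22 log2 (SE 0.11, adjusted p = 0.904). At 30 min the difference was 0.47 in both pairs, which gave an unadjusted p of 0.0284 and an adjusted p of 0.850 in limma. The 2 silent arrays at 30 min held the 2 lowest NAPG values of the 12. In raw intensity these were 27.28 and 25.27, under the brightest last positions of the same arrays (60.24 and 51.68). On the 30 min BiC/4AP array without ActD, NAPG (34.21) was under the brightest last position (220.5) too. NAPA spot 6338 had an effect of 0.12 (SE 0.08, adjusted p = 0.904), with the 60 min pair with ActD as the exception (-0.08). NAPA spot 9559 was above 0 in 3 of 6 pairs (0.09, SE 0.17, adjusted p = 0.956).

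**Figure D2:**
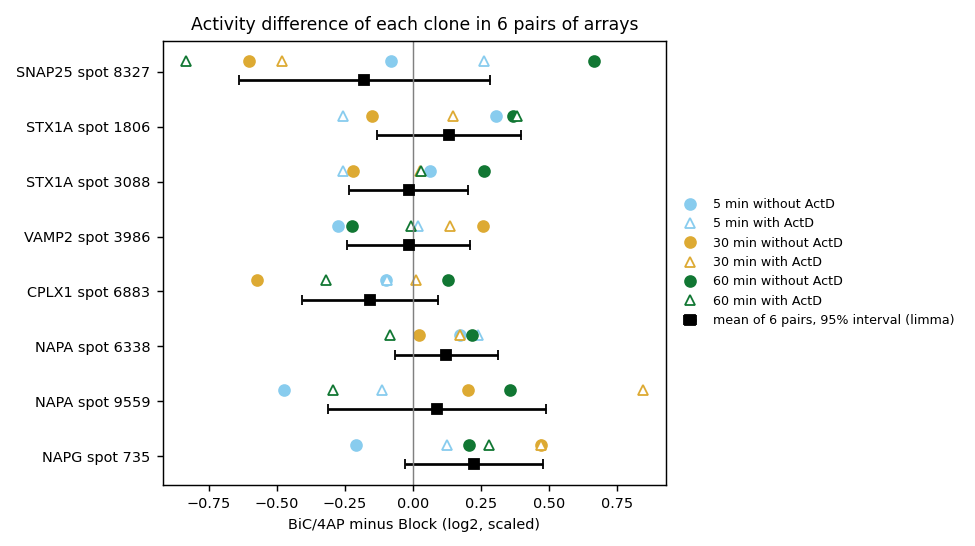
Difference of BiC/4AP minus Block in the scaled log2 level of each clone, for each of 6 pairs of arrays (coloured points) and as the mean over pairs with its 95% interval from limma (black squares). All 8 intervals include 0, and SNAP25 shows the widest scatter, from -0.84 to 0.66.

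The limma intervals state which sizes of a shared effect these arrays could still hold. Half-widths of the 95% interval were 0.19 log2 for NAPA spot 6338, 0.22 for the second STX1A spot, 0.23 for VAMP2, 0.25 for CPLX1 and NAPG, 0.27 for the first STX1A spot, 0.40 for NAPA spot 9559 and 0.46 for SNAP25. The median over all spots was 0.28.

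Separating the pairs by ActD or by time did not bring a member past the threshold. Without ActD 0 of 8 clones were called (0% of all spots, 300 spots at an unadjusted p under 0.05), with ActD 0 of 8 (0.0104% of all spots), and for the difference between both 0 of 8 (0% of all spots, 283 spots at an unadjusted p under 0.05). The activity effect on SNAP25 was -0.01 (SE 0.29) without and -0.35 (SE 0.29) with ActD, and the difference of 0.35 had an SE of 0.41 (limma adjusted p = 0.998) and ran from 0.01 to 0.65 when 1 pair was left out. At 5, 30 and 60 min again 0 of 8 clones were called, where 0%, 0.0104% and 0% of all spots were. NAPG at 30 min was the 1 clone at an unadjusted p under 0.05, as were 537 of 9600 spots. At 30 min the effect was 0.52 (SE 0.25) for NAPA spot 9559 and -0.54 (SE 0.35) for SNAP25, both with a limma adjusted p of 0.850.

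The study classed a transcript as co-regulated when its z-fold between active and silent arrays passed 1.4 without ActD and again, on the same side, with ActD. With the z-fold taken as the difference of z-scores divided by its SD over all spots, a form assumed here, 0 of 8 clones passed at 5 min (1.07% of all spots), 0 at 30 min (1.05%) and 0 at 60 min (0.927%). Single pairs passed for only 2 clones. NAPA spot 9559 had a z-fold of 1.48 at 30 min with ActD but 0.36 without, and SNAP25 had -1.56 at 60 min with ActD but 1.27 without. In these 2 pairs 8.2% and 6.32% of all spots lay beyond 1.4 in either direction. NAPG reached 0.83 in both pairs at 30 min.

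The number of clones above 0 changed from pair to pair. At 5 min 3 of 8 clones were above 0 without and 4 with ActD, at 30 min 4 and 7, and at 60 min 7 and 3. The 8 clones come from the same RNA on each array and are not replicates of a condition. Marker lists were compared in the same pairs. The mean level of the 8 neuronal genes with a clone lay between 0.02 and 0.29 on Block arrays and between -0.03 and 0.34 on BiC/4AP arrays, and astrocyte genes (6 of 11 with a clone) lay between -0.30 and 0.33 and between -0.28 and 0.30. Oligodendrocyte lineage genes (4 of 11) lay between -1.53 and -0.81 on Block and between -1.03 and -0.69 on BiC/4AP arrays, higher in 5 of 6 pairs. On this list PDGFRA, a gene of oligodendrocyte precursors, had an activity effect of 1.84 log2 (limma adjusted p = 0.904). Over the 7 clones of the list the median effect was -0.00, 3 were above 0, and SOX10 and MBP had -0.27 and -0.09. The part of these cells in the values of the members was not tested.

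ActD itself moved no member past the test. Over 6 pairs with and without ActD, 0 of 8 clones were called (0.0104% of all spots, 201 spots at an unadjusted p under 0.05). Effects lay between -0.13 for the first STX1A spot and 0.12 for SNAP25 (SE 0.21), with 6 of 8 clones above 0. For SNAP25 the 6 differences ran from -0.48 in silent cultures at 5 min to 1.17 in silent cultures at 60 min.

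The arrays of different times did differ for several members. Which clones were called depended on the processing, and for both STX1A spots the direction did too. Between 30 and 5 min, 5 of 8 clones were called, 3 higher and 2 lower at 30 min, where 44.5% of all spots were called (20.1% higher and 24.4% lower). With so many spots called, the count among 8 clones is not a result about the members. After median centring, which moved the median difference of all spots from 0.01 to 0.29, 4 clones were higher and 0 lower, and after cyclic loess 0 were higher and 1 lower. Membranes carry numbers in the labels that run with time, so that time and membrane number cannot be told apart. The arrays of 5 min also serve in the comparison with 60 min, so both comparisons share them.

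Higher at 30 min were NAPA spot 6338 and both STX1A spots. NAPA spot 6338 had levels of 1.404, 1.56, 1.58 and 1.79 on the 5 min arrays and of 1.94, 2.14, 1.96 and 2.31 on those of 30 min, in the order Block, Block with ActD, BiC/4AP and BiC/4AP with ActD, so that the groups did not overlap, as was the case for 42.3% of all spots. It rose by 0.51 log2 (SE 0.14, limma adjusted p = 0.0155), but the difference was 0.24 after quantile normalisation (adjusted p = 0.228) and 0.16 after cyclic loess (adjusted p = 0.392). The first STX1A spot had levels of 0.47, 0.43, 0.77 and 0.17 at 5 min and of 1.09, 0.78, 0.94 and 0.93 at 30 min, where the lowest value was just above the highest of 5 min. It rose by 0.47 (SE 0.15, adjusted p = 0.0326), and the second spot rose by 0.46 (SE 0.16, adjusted p = 0.0468), also without overlap. With the median of each block of 25 spots subtracted, however, the difference was -0.24 at the first and -0.10 at the second spot, so that the direction for STX1A turned.

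Lower at 30 min were NAPA spot 9559 and NAPG. Both lay under the brightest last position on the 30 min Block, Block with ActD and BiC/4AP arrays. They stayed above the 95th percentile of the last positions there. NAPA spot 9559 had levels of -0.13, 0.12, -0.60 and 0.00 at 5 min and of -0.87, -1.54, -0.67 and -0.69 at 30 min, and the groups did not overlap. It fell by 0.79 log2 (SE 0.24, limma adjusted p = 0.0258), but the difference was -0.48 after quantile normalisation (adjusted p = 0.148) and -0.42 after cyclic loess (adjusted p = 0.187). NAPG fell by 0.43 (SE 0.13, adjusted p = 0.0289), from a mean of -0.93 ± 0.14 (SD, n = 4 arrays of different treatment) to -1.36 ± 0.27, and the groups overlapped by 1 array, since the 30 min BiC/4AP value (-1.11) was level with the lowest of 5 min (-1.12). For NAPG the call was lost after quantile normalisation (-0.11, limma adjusted p = 0.520), median centring (-0.15, adjusted p = 0.370) and cyclic loess (-0.09, adjusted p = 0.594). The remaining clones did not pass. VAMP2 had a difference of -0.28 (adjusted p = 0.102), CPLX1 of -0.26 (adjusted p = 0.277) and SNAP25 of 0.44 (adjusted p = 0.183). After quantile normalisation CPLX1 (-0.48, limma adjusted p = 0.0407) and SNAP25 (0.73, adjusted p = 0.0352) did pass, with the first STX1A spot as the only other clone.

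Between 60 and 5 min, 2 of 8 clones were called, against 36.6% of all spots (16.2% higher and 20.5% lower), and both were NAPA clones. Spot 6338 rose by 0.41 (adjusted p = 0.0431) and spot 9559 fell by 0.83 (adjusted p = 0.0244), and both calls were lost after quantile normalisation (0.15 and -0.53) and cyclic loess (0.08 and -0.48). All values of these times lay apart for 3 of 8 clones, against 40.7% of all spots. Between 60 and 30 min, 0 of 8 clones passed, against 3.15% of all spots, and VAMP2 alone was at an unadjusted p under 0.05, as were 1568 of 9600 spots. VAMP2 had levels of 0.59, 0.50, 0.85 and 0.64 at 30 min and of 1.44, 1.11, 1.22 and 1.10 at 60 min. These did not overlap, as was the case for 11.2% of all spots, and the difference was 0.57 (SE 0.13, adjusted p = 0.0529). SNAP25 had a difference of -0.52 (adjusted p = 0.348), with the 60 min Block array at -0.996.

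The calls for time changed when a set of arrays was left out and with the scaling. Without the 3 Block arrays without ActD, or without those with ActD, 0 of 8 clones were called between 30 and 5 min. Without the BiC/4AP arrays with ActD 1 was. A fit without a set also has fewer arrays to call with, and no called clone turned direction. The difference stayed at 0.48 to 0.55 for NAPA spot 6338 and 0.38 to 0.58 and 0.33 to 0.59 for the STX1A spots. It was -1.03 to -0.50 for NAPA spot 9559 and -0.57 to -0.34 for NAPG. After cyclic loess 1 of 8 was called, and between 60 and 5 min it was 4 of 8 after median centring and 1 of 8 after cyclic loess. The SD of log2 intensity over all spots was 2.05 to 2.14 on the 5 min arrays, 2.07 to 2.15 on the 30 min arrays and 2.25 to 2.30 on the 60 min arrays. The mean level of astrocyte markers moved with time as well. It was 0.13 to 0.33 at 5 min, -0.28 to -0.07 at 30 min and -0.30 to -0.11 at 60 min, whereas that of neuronal markers was 0.07 to 0.29, -0.03 to 0.34 and 0.02 to 0.28. Microglial genes (5 of 10 with a clone) were at 1.76 to 1.90, 1.92 to 2.11 and 1.81 to 2.002 at these times, and vascular and fibroblast genes (4 of 11) at 0.13 to 0.35, 0.13 to 0.46 and -0.25 to 0.00. The part of these cell types in the differences between times was not tested.

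**Figure D3:**
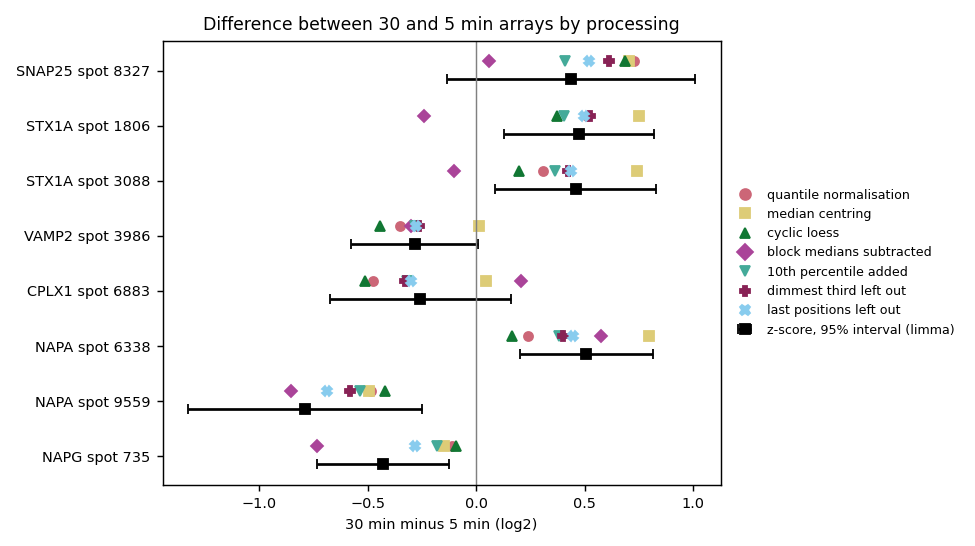
Difference between the 30 min and the 5 min arrays for each clone in log2 units, with the 95% interval of the z-score analysis from limma (black squares) and the values under 7 other ways of processing (coloured marks, without one for NAPG where the dimmest 33.3% of spots were left out). NAPA spot 6338 stays above 0 and NAPA spot 9559 and NAPG below 0 in each setting shown, with NAPG between -0.73 and -0.09, while both STX1A spots turn negative (-0.24 and -0.10) once block medians are subtracted.

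Repeated spots offered a measure of error. The 2 STX1A spots, which carry the same accession, differed by 0.57 ± 0.15 log2 (SD over 12 arrays, 0.35 to 0.90), always in the same direction. The activity differences of both spots had the same sign in 6 of 6 pairs, and the ActD differences in 4 of 6. Over 131 accessions spotted at least 2 times, the SD of such a difference had a median of 0.41 (quartiles 0.29 and 0.55), and 4 had a smaller SD than STX1A. The size of the mean difference had a median of 1.27 log2 over these accessions (quartiles 0.62 and 2.45). The gap of 0.57 between the STX1A spots was thus under the lower quartile, and the level at a single spot is a poor guide to the level of its transcript. The 2 NAPA clones have different accessions, so their levels were not set against each other. Their activity differences shared a sign in 4 of 6 pairs and the ActD differences in 3 of 6. For time, 1 NAPA clone was called higher and the other lower on the z-score scale, so that these arrays gave no single direction for alpha-SNAP.

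**Figure D4:**
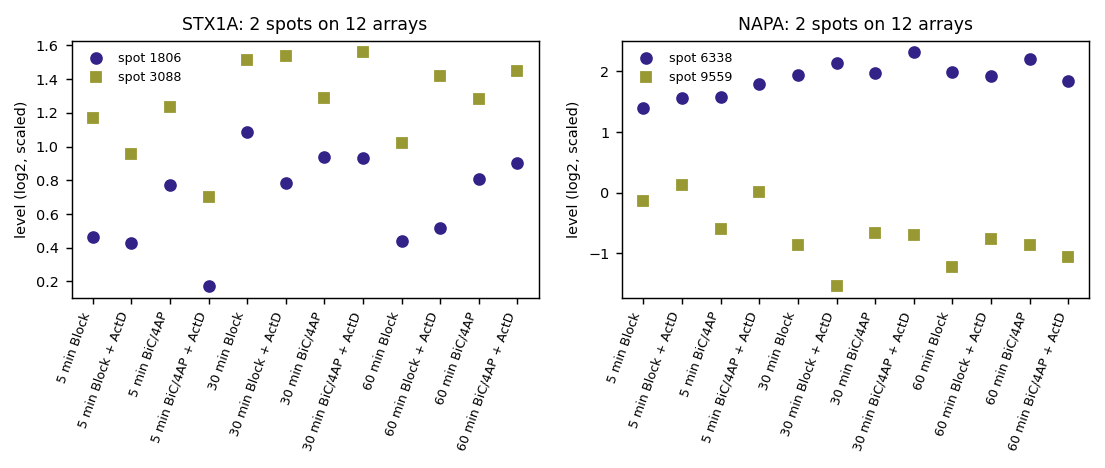
Scaled log2 level of the 2 STX1A spots (left) and of the 2 NAPA clones (right) on each of the 12 arrays, 1 point per array and spot. The STX1A spots keep a gap of 0.35 to 0.90 throughout, whereas NAPA spot 6338 is lowest and NAPA spot 9559 highest on the 4 arrays of 5 min.

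Bright spots lay next to some members on the membrane. The brightest adjacent spot of NAPG, a clone of SCYL2, had a median intensity of 3271, 84.4 times that of NAPG, and that of CPLX1, a clone of GNB1, was 28.8 times as bright as CPLX1. The ratio was 7.38 for SNAP25, 6.15 for VAMP2 and 1.22 to 2.28 for both NAPA clones and both STX1A spots. Between 30 and 5 min the SCYL2 spot had a difference of 1.02 where NAPG fell by 0.43. The neighbour of NAPA spot 6338 (TSPAN3) had 0.53 where NAPA rose by 0.51. HSPB8 and CFAP298, next to the first and the second STX1A spot, had 0.89 and 0.80 where STX1A rose by 0.47 and 0.46. KHK, next to NAPA spot 9559, had -0.22 where that clone fell by 0.79. The neighbours of CPLX1, SNAP25 and VAMP2, which were not called, had 0.46, -0.75 and 0.08, each opposite in sign to its clone. The part of neighbouring spots in these values was not tested.

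Other genes of the pathway were read from 3 lists. Of SNAREs of the plasma membrane and vesicles besides the members, 7 of 15 genes had a clone (12 clones). For activity 0 were called, with a median of 0.03. By lowest p in each direction, the effects were 0.27 for SNAP29 and 0.25 for SNAP23, 2 relatives of SNAP25 found in most tissues, and -0.24 for VAMP4 and -0.23 for STX4, a plasma membrane syntaxin. Of SNAREs of the Golgi, endosomes and endoplasmic reticulum, 19 of 22 listed names had a clone (23 clones), 0 were called and the median was 0.03. BNIP1 was listed under its other name SEC20 as well. BNIP1 (0.33) and BET1 (0.20), SNAREs of traffic between endoplasmic reticulum and Golgi, stood at one end, and STX10 (-0.29) and SEC22C (-0.32) at the other. Of regulators of SNARE assembly, 9 of 40 genes had a clone (11 clones), 0 were called, and the median was -0.13 with 3 clones above 0. SCFD1 and VPS45, both Sec1/Munc18 proteins that guide syntaxins, had values of -0.22 and -0.21. In the other direction a clone of SNAPIN, which binds SNAP25, and a clone of SYT11, a synaptotagmin, had 0.09 each (limma adjusted p = 0.924 and 0.958). Both genes had another clone. With ActD the other SYT11 clone had -0.32, and the other SNAPIN clone had 0.18, with an effect lower by 0.61 without ActD. SNAP23 and VAMP4 above had another clone as well, and each named value is that of a single clone. The other genes named from the lists had a limma adjusted p of 0.904. Between 30 and 5 min the 3 lists had 1, 4 and 2 clones called higher and 1, 10 and 2 called lower, in the same order, where 20.1% and 24.4% of all spots were.

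The clones most like each member over the 12 arrays were listed by Pearson's r among up to 7902 clones with 1 gene symbol and an intensity over 10 on every array, as a description only, since all share the arrays and their depth. SNAP25 was nearest to NPM1 (r = 0.959), ENTREP3 (0.936) and PPP1CA (0.917), the last of which is spotted in the same block. The second STX1A spot was nearest to BUD23 (0.980), VAMP2 to COA7 (0.984), CPLX1 to C1orf56 (0.938) and NAPA spot 6338 to C1QL1 (0.991). NAPG had the lowest of these, 0.891 with NAB2. Within times, after removing the mean of each, r was 0.945 for NPM1 with SNAP25 and 0.768 for NAB2 with NAPG. The other SNARE genes were not among the 3 nearest clones of any member.

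Promoters of the rat genes were searched for motifs of factors known to act in stimulated neurons and at neuronal promoters. RefSeq windows of 300 bases around the start of the gene (assembly GRCr8) matched 5 of the 6 members (Stx1a, Vamp2, Cplx1, Napa and Napg). The cyclic AMP response element, to which the activity-regulated factor CREB binds, and its core are shown because CREB is the classical link from synaptic activity to transcription. The whole element TGACGTCA was found, on either strand, in the window of 1 member, Napa (1.83% of 33469 promoters). Its core TGACG, which the whole element contains, was in those of Napa, Vamp2 and Cplx1 (21.2% of promoters). Counted from the start of the gene, the match began at -59 in Napa, -29 in Vamp2 and 11 in Cplx1. The Cplx1 match thus lay after the start. The 3 windows of 30 bases are on the plus strand at chr1:85915365-85915394, chr10:54292748-54292777 and chr14:1329072-1329101, with the element or its core in capitals.
Napa: gcagacccgggTGACGTCAacgtagcgggc
Vamp2: cccggatgcgggTGACGtgcggccgccatc
Cplx1: ggcgcttctgagTGACGcgccctcctcgcg
Other motifs, searched on both strands, were the GC box GGGCGG in 5 of 5 windows (33.1% of promoters), the E-box CANNTG in 4 (72.1%) and the CCAAT box in 1 (37.5%). The NRF1 site (GCGCA and GCGC with 1 base of any kind between) was in 1 (4.25%). TGACGTNA, which includes the element above, was in 1 (3.25%). CC and GG with 6 bases of any kind between were in 4 (71.5%). That pattern is looser than the core of the serum response element, which has only A or T inside and was not itself searched. The AP-1 site TGANTCA (7.33%), the TATA box TATAAA (14.2%) and the left arm of the RE1 element, TTCAGCACC (0.356%), were in 0 of 5. These matches describe letters in a window, and the arrays showed no change with activity that passed the test for Napa, Vamp2 or Cplx1.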

How the data were processed

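The authors made 33P-labelled cDNA from total RNA, hybridised it to nylon membranes of human cDNA clones, scanned these with a phosphorimager and deposited raw spot intensity, to which no normalisation had been applied. Per the methods, intensity was later transformed to z-scores in the study, which is the scale used here. A second deposited table held the same intensity in 115200 of 115200 values. The methods of the study describe a brief stimulus with later harvest, pooling over experiments and another amount of RNA than the labels, and the times used here are those of the labels. Per-sample columns belonging to no sample numbered 0. The annotation listed 8517 of 9600 spots, 8496 with 1 gene symbol, 21 with several (left unnamed), and left 1083 unlisted.

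Values were scaled as z-scores of log2 intensity per array, times the mean SD of log2 intensity. limma 3.58.1 in R 4.3.3 was fitted to all 9600 spots on 12 arrays with empirical Bayes moderation and Benjamini-Hochberg adjustment (threshold 0.05), with matched pairs (activity, ActD) or sets (time) as blocks. The fitting step was tested on simulated data with independent noise and planted shifts larger than the activity effects of the members. That run checked the fit and does not bear on effects of their size. With 1 array per condition, p-values rest on how far arrays of different conditions scatter, which may be technical, and the number of arrays limits the precision. The z-fold formula is not given in the sources used here, so a difference divided by its SD over all spots was assumed and the plain difference tried too. Named were all member clones, the 3 clones most like the brightest clone of each gene and, from each pathway list, the 2 genes of lowest p in each direction. Members and lists were chosen with earlier results of these data known. Alternatives were quantile normalisation, median centring, cyclic loess, block medians, an added 10th percentile, 2 filters on spots, additive terms and leaving out pairs or sets. Figures and summaries used Python 3.11.15.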

Additional observations from a re-analysis of the deposited data

Results flagged for a closer look

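The activity effect on VAMP2 (spot 3986) pointed one way at 30 min and the other at 60 min. At 30 min both pairs were above 0 (0.26 without and 0.14 with ActD) and at 60 min both were below 0 (-0.23 and -0.01). The effect at 30 min exceeded that at 60 min by 0.31 log2, and the test of this difference gave -0.31 for 60 minus 30 min (SE 0.24, limma adjusted p = 1.00).

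For NAPA spot 9559 both pairs were below 0 at 5 min (-0.47 and -0.12) and above 0 at 30 min (0.20 and 0.85). The effect at 5 min minus that at 30 min was -0.82 log2, and the test of 30 minus 5 min gave 0.82 (SE 0.36, unadjusted p = 0.0624, limma adjusted p = 0.844). The other NAPA clone had 4 of 4 pairs above 0 at these times. Each of these values is a difference of single arrays. Spot 9559 lay under the brightest last position on the 30 min Block, Block with ActD and BiC/4AP arrays.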

How the results depend on the processing

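Pairing by replicate number was not possible, because the labels number every sample as replicate 1 and each condition has 1 array. The pairs and sets used throughout were matched by condition. Counts of member clones called for activity, for ActD and as co-regulated were 0 under every alternative run. Of 106 counts under other settings 91 were within 1.5 times of the main count. These 91 include every count that was 0 in both runs, as all those for activity, ActD and co-regulation were. The share therefore does not describe how stable the counts for time were, which are given below. Of 237 effects of single clones 185 kept direction and side of the threshold. The cause was not tested for any change.

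Between 30 and 5 min, 5 clones were called in the main analysis, 4 after median centring (all higher), 3 after quantile normalisation, with block medians subtracted or with the 10th percentile added, 1 after cyclic loess, and 0 to 5 when 1 set of arrays was left out. These were not always clones of the main analysis, since 2 of the 3 after quantile normalisation (SNAP25 and CPLX1) and the 1 after cyclic loess (CPLX1) were not called there. Between 60 and 5 min the count went from 2 to 4 after median centring, to 1 after quantile normalisation, cyclic loess, an added 10th percentile, without the dimmest 33.3% of spots or without last positions, and to 0 to 1 without 1 set. Between 60 and 30 min it went from 0 to 1, VAMP2, with median centring, the 10th percentile, either filter on spots, or additive terms.

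Directions turned as follows. The activity effect of the second STX1A spot was 0.00438 with quantile normalisation, 0.0245 with cyclic loess and 0.0820 with block medians, and that of VAMP2 was 0.00888, 0.0154 and 0.0255. The SNAP25 effect without ActD was 0.0167, 0.0348, 0.0220, 0.0618 and 0.00573 with quantile normalisation, median centring, cyclic loess, block medians and without the dimmest spots. With block medians the ActD effect was 0.0207 for the first STX1A spot and -0.0432 for SNAP25, and the 30 against 5 min difference was -0.24 and -0.10 for the STX1A spots and 0.21 for CPLX1. With median centring that difference was 0.0124 for VAMP2 and 0.0471 for CPLX1. With 1 pair left out, activity effects ranged from -0.0708 to 0.0359 for VAMP2, from -0.0723 to 0.0312 for the second STX1A spot, from -0.0647 to 0.199 for NAPA spot 9559 and from -0.34 to 0.29 for SNAP25 without ActD, and the ActD effect of SNAP25 from -0.0903 to 0.24. Signal over background limits NAPG and NAPA spot 9559 most, since each fell under the brightest last position on 3 arrays.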
